A study of Mus musculus with 4 samples.

Results

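Matricellular proteins are secreted into the extracellular matrix, where they regulate how cells attach, move and receive growth factors rather than bearing load. The 10 genes described here encode thrombospondins (Thbs1, Thbs2 and Thbs3), the collagen-binding protein SPARC (Sparc), tenascin C (Tnc), periostin (Postn), fibulin 1 (Fbln1), fibronectin (Fn1) and a pair of CCN proteins, CYR61 (Cyr61, now Ccn1) and CTGF (Ctgf, now Ccn2). They were taken by gene name from the arrays, with every probe kept apart, which gave 18 probes on 27 spots, out of 27962 gene names and 41174 probes in all. The genes were chosen by their measured levels in 4T1-S against 4T1-A, the same values that are given below. The difference is therefore given for them as a description, and the calls reported for them are not evidence in its favour.

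The RNA was that of 4T1-A and 4T1-S, which share 4T1, a metastatic mouse mammary carcinoma line, as their parent. The study presents 4T1-S as the highly immunogenic one, and the labels name no treatment, genotype or time and do not say how either sub-line was derived. Each sub-line was measured on 2 one-colour Agilent arrays, all on 1 slide, where 4T1-A took positions 1 and 2 while 4T1-S took positions 3 and 4, so position and sub-line cannot be told apart. Separate cultures are not stated for the replicate arrays, so any p-value rests on the spread of these arrays alone, and that spread may be technical.

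A level is the processed intensity in units of the 75th percentile of its array, so that 1 equals that percentile. Between 54.9 and 59.2 percent of the 43379 spots per array were well above background. Replicates correlated at r = 0.991 in both sub-lines over the 23668 probes tested, which are not independent replicates. Arrays of different sub-lines correlated at 0.969 to 0.978 over the same probes, so a high r alone does not show that replicates are close. Of the 6 epithelial marker genes found on the array out of 7 listed, all were above background on both arrays of each sub-line. Their summed level, most of it from Krt8 and Krt18, was 379 to 386 in 4T1-A and 283 to 362 in 4T1-S. Limma called 3 of the 6 lower in 4T1-S and did not call Krt5, Krt8 and Krt18. The 3 were the E-cadherin gene Cdh1 (-1.11 ± 0.19, limma's moderated SE, log2, adjusted p = 0.0196) and the keratin genes Krt14 (-2.06 ± 0.20, adjusted p = 0.00148) and Krt19 (-2.61 ± 0.29, adjusted p = 0.00268). Markers of fibroblasts, which make many matricellular proteins in tissue, summed to 0.947 and 1.24 in 4T1-A, against 1.74 and 1.81 in 4T1-S. Most of each sum came from a Pdgfra probe (0.324 and 0.529 against 0.780 and 0.758) and a Col1a2 probe, and limma called neither. The only fibroblast marker called was Col1a1, higher in 4T1-S on a probe not above background in 4T1-A. Of the 9 fibroblast genes, 2 were above background on both 4T1-A arrays and 5 on both 4T1-S arrays. Pdgfrb, Lum and Fap were above it on none. Endothelial markers summed to 0.175 to 0.178 and 0.245 to 0.302, with Kdr, Cdh5, Pecam1 and Tie1 above background on no array. Leukocyte markers gave 1.06 to 1.13 and 1.06 to 1.102, smooth muscle markers 19.5 to 28.8 and 14.2 to 25.6, and platelet markers 0.145 to 0.188 and 0.162 to 0.202, in each case first 4T1-A and then 4T1-S. The part of these markers in the results was not tested, and in bulk RNA fewer cells of a type and less RNA per cell cannot be told apart.

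Thbs3 was the 1 gene of the 10 that was higher in 4T1-S by the test, and Fbln1 the 1 gene that was lower. The test took probes that were well above background on both replicates of 4T1-A, of 4T1-S or of each, as 15 of the 18 member probes were. Limma called 1 of the 15 higher and 1 lower at an adjusted p under 0.05, and 13 were not called. Without 4T1-A replicate 1 the number called was 5 and without 4T1-A replicate 2 it was 4. Over all 23668 probes tested, 4.58 percent were called, 2.21 percent higher and 2.37 percent lower in 4T1-S. That is 523 against 562 probes, a split that became 224 against 1162 with scaling to the array median, 310 against 581 with quantile normalization and 271 against 694 with cyclic loess. The median difference (4T1-S minus 4T1-A, log2) was -0.37 over the 15 member probes and 0.11 over all probes tested, where it became -0.18 with scaling to the median. The members' median was -0.66 with that scaling and -0.16 with normexp, and it turned to 0.047 without 4T1-A replicate 1 and was -0.68 without 4T1-A replicate 2. Normexp is a background correction that here adds 50 intensity units to every spot, which draws dim levels together. The arrays of the sub-lines did not overlap for 3 member probes higher and 5 lower in 4T1-S, and overlapped for the other 7. Over all probes tested, 37.8 percent were higher and 18.7 percent lower without overlap, 56.5 percent together. Nothing is read from these shares, since the same contrast chose the members.

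**Figure D1:**
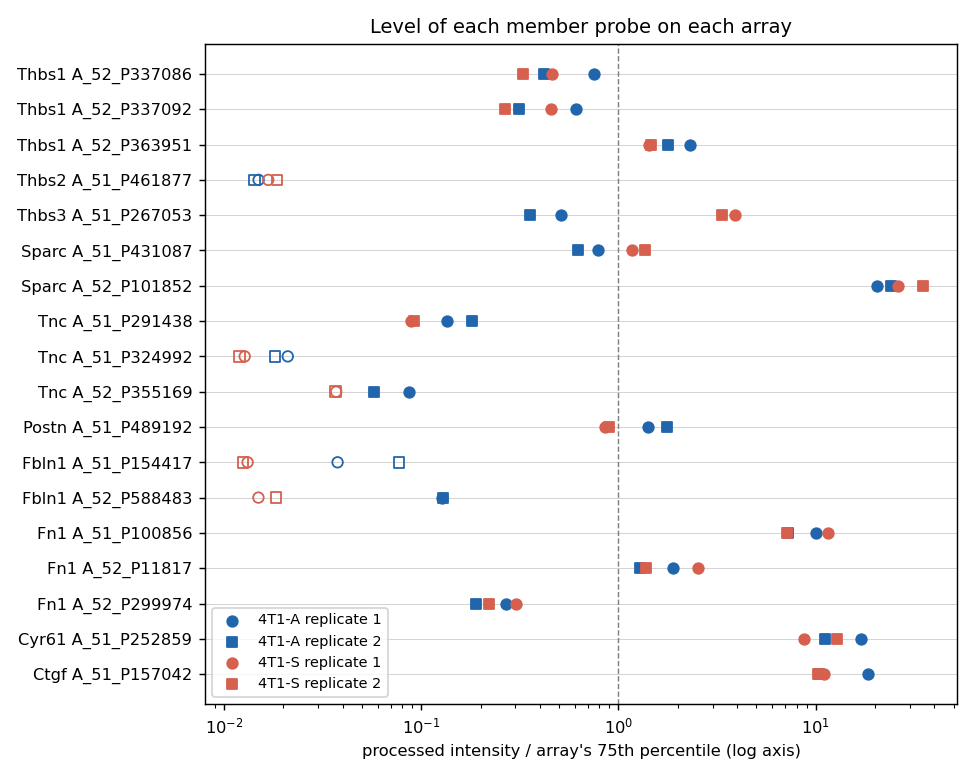
Level of each of the 18 member probes on each of the 4 arrays, as processed intensity over the array's 75th percentile on a log axis, with 4T1-A in blue, 4T1-S in red, replicate 1 as circles and replicate 2 as squares. Filled symbols mark probes above background on both arrays of the sub-line. The Thbs3 arrays lie apart, at 0.355 and 0.511 in 4T1-A, against 3.34 and 3.89 in 4T1-S.

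Thrombospondins are modular calcium-binding glycoproteins. Thbs1 and Thbs2 assemble as trimers, inhibit angiogenesis through the receptor CD36 and bind CD47, and Thbs1 can activate latent TGF-beta. Thbs3 belongs to the pentameric subgroup, which lacks the domains that act on angiogenesis and is best known from skeletal tissue.

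The single Thbs3 probe (A_51_P267053, RefSeq NM_013691, chromosome 3) read 0.511 and 0.355 in 4T1-A, against 3.89 and 3.34 in 4T1-S. Both 4T1-S arrays were thus far above both 4T1-A arrays, by 8.47-fold (log2 difference 3.08 ± 0.24, 95% interval 2.53 to 3.64). Here and below, ± is limma's moderated SE, with 2 arrays in each sub-line. It draws each probe's variance toward that of all probes tested, so for a noisy probe it is smaller than the spread of its own arrays would give. The 95% intervals rest on the same SE. The probe was the 22nd from the top when all tested probes were ordered by their difference. Its difference stayed between 2.74 and 3.35 under the 15 other settings tried, and it was called in each of them. The summed fibroblast markers were also higher in 4T1-S and 3 epithelial markers lower, as given above, and their part in the level of Thbs3 was not tested. The 250 bases before the RefSeq start of Thbs3 (chr3:89214930-89215179, plus strand, GRCm38.p6) are shown because its probe had the largest difference of the 15 tested, with motif matches in capitals.

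Thbs3: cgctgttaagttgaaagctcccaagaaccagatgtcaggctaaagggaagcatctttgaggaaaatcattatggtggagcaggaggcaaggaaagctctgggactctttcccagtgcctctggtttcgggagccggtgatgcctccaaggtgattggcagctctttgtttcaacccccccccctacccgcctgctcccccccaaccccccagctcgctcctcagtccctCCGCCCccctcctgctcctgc

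The motifs searched on both strands were GGAATG, the core bound by TEAD factors, TGANTCA for AP-1, TATAAA for the TATA box, GGGCGG for the GC box and the CArG box of serum response factor. The capitals in the Thbs3 window are its only match, a GC box, which 32.7 percent of 32851 RefSeq windows of this length hold. In the reference annotation Thbs3 lies between Mtx1, which encodes a mitochondrial import protein, and the mucin gene Muc1. Mtx1 read 60.5 and 64.8 in 4T1-A, against 51.4 and 60.0 in 4T1-S on its bright probe, a difference of -0.17 ± 0.20 that was not called (limma adjusted p = 0.624), and no Muc1 probe was above background on any array. These neighbours were examined after the members' values were seen.

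The probes whose pattern over the 4 arrays lay closest to that of Thbs3 were those of Kctd12b, which encodes a potassium channel tetramerisation domain protein, of the chemokine gene Ccl9 and of the pancreatic elastase gene Ela1. Likeness was the Euclidean distance between log2 levels after each probe's mean was removed, and it was 0.29, 0.40 and 0.41. Kctd12b read 0.0143 and 0.0127 in 4T1-A, against 0.136 and 0.115 in 4T1-S, Ccl9 read 0.0573 and 0.0338 against 0.378 and 0.451, and Ela1 read 0.0582 and 0.0595 against 0.495 and 0.453. In 4T1-A, Kctd12b and Ccl9 were not well above background on either array and Ela1 was so on 1 array, so these distances rest in part on levels that were not measured. With normexp, which draws dim levels together, their differences were 1.19, 1.63 and 1.46, against 2.74 for the brighter Thbs3.

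Thbs1 was measured by 3 probes above background on all arrays, and none was called. The brightest (A_52_P363951) read 2.31 and 1.77 in 4T1-A, against 1.42 and 1.46 in 4T1-S, lower on both 4T1-S arrays by -0.49 ± 0.21 (95% interval -0.98 to 0.0036). A_52_P337086 read 0.749 and 0.420 in 4T1-A, against 0.458 and 0.327 in 4T1-S (-0.53 ± 0.31), and A_52_P337092 read 0.612 and 0.313 against 0.452 and 0.266 (-0.34 ± 0.37). On both of these probes the sub-lines overlapped and replicate 1 was the brighter array in each sub-line. With 1 array left out, A_52_P337086 ranged from -0.12 without 4T1-A replicate 1 to -0.95 without 4T1-A replicate 2, where it was called. Without 4T1-A replicate 1 the difference of A_52_P337092 was 0.15, and without 4T1-S replicate 2 it was 0.05. The Thbs2 probe was on no array well above background, at 0.0150 and 0.0143 in 4T1-A, against 0.0168 and 0.0186 in 4T1-S.

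**Figure D2:**
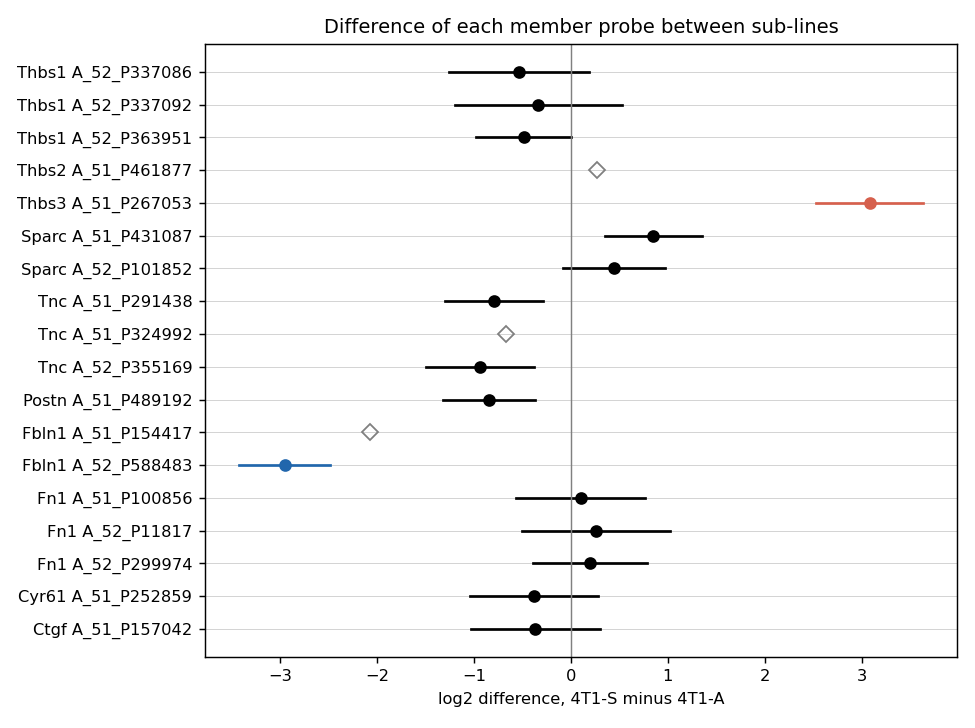
Difference of each member probe between the sub-lines (log2, 4T1-S minus 4T1-A), with lines for the 95% interval of limma's fit, red for the probe called higher, blue for the probe called lower and black for probes not called. Open diamonds are the 3 probes not tested, and the Fbln1 probe at -2.95 and the Tnc probe at -0.94 both rest on dim 4T1-S arrays.

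Fibulin 1 binds fibronectin, laminins and other matrix ligands and is incorporated into fibres and basement membranes. Its probe A_52_P588483 (RefSeq NM_010180, chromosome 15) read 0.127 and 0.129 in 4T1-A, against 0.0149 and 0.0183 in 4T1-S, and neither 4T1-S array was well above background. The fold can therefore be given only as an approximate bound, by which the level of Fbln1 in 4T1-S was lower by at least 2.23-fold. The bound sets the 4T1-A mean against, per array, the higher of the probe's own level and the lowest level well above background, and it leaves the spread between arrays out of account. Neither it nor the bounds below are strict limits, since some probes above that lowest level did not pass. A Smoc2 probe at 0.0637 and 0.0617 in 4T1-A was not well above background, where the lowest levels that passed were 0.0511 and 0.0488. The measured difference was -2.95 ± 0.20. With the normexp background correction it was -0.53 and the call was lost. Because the 50 units added there draw dim levels together, that loss cannot decide whether the sub-lines differ. The second probe (A_51_P154417) read 0.0376 and 0.0770 in 4T1-A, above background on 1 array, and 0.0132 and 0.0125 in 4T1-S, and was not tested. Both probes were dimmer on both 4T1-S arrays. RefSeq lists a pair of starts for Fbln1, and the 250 bases before the downstream start (chr15:85205758-85206007, plus strand, GRCm38.p6) hold a GC box, in capitals, next to the start.

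Fbln1: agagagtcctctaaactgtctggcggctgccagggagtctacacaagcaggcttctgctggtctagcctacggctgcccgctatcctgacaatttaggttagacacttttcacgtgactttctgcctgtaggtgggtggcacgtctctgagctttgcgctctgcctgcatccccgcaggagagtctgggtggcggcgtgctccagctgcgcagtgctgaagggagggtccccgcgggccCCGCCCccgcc

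Tenascin C is a hexameric glycoprotein with little expression in resting adult tissue and much in wounds and tumour stroma, where it loosens cell attachment to fibronectin. The Tnc probe A_51_P291438 read 0.135 and 0.180 in 4T1-A, against 0.0882 and 0.0916 in 4T1-S, a difference of -0.79 ± 0.22 (95% interval -1.29 to -0.29). A_52_P355169 read 0.0866 and 0.0577 against 0.0370 and 0.0368 and was not well above background in 4T1-S, so the measured difference of -0.94 ± 0.24 corresponds to a bound of at least 1.23-fold lower. A_51_P324992 was on no array well above background, at 0.0210 and 0.0181 in 4T1-A, against 0.0127 and 0.0119 in 4T1-S. All 3 Tnc probes were thus dimmer on both 4T1-S arrays, without a call. Both tested probes were called with scaling to the median and with cyclic loess, and so was their mean over the gene (-0.86 ± 0.19), whereas normexp moved them to -0.16 and -0.05.

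Periostin is a fasciclin-domain protein that binds integrins and promotes the cross-linking of collagen, and it is made mainly by fibroblasts in breast tumours. Its probe under the name Postn (A_51_P489192) read 1.42 and 1.76 in 4T1-A, against 0.858 and 0.900 in 4T1-S, lower on both 4T1-S arrays by -0.85 ± 0.20 (95% interval -1.32 to -0.37). It was not called among all probes, but passed with scaling to the median, without 4T1-A replicate 1 and when each gene name was tested by its brightest probe alone. A further probe, A_51_P469817, carries the name A630052E07Rik, which RefSeq lists as a synonym of Postn. It went the other way, from 0.0140 and 0.0148 in 4T1-A to 0.0417 and 0.0326 in 4T1-S, but it was on no array well above background, so the disagreement sets a measured difference against a level that was not measured.

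SPARC binds collagen and counteracts cell spreading, and it is abundant where matrix is remodelled. The bright Sparc probe (A_52_P101852) read 20.5 and 24.2 in 4T1-A, against 26.1 and 35.1 in 4T1-S (0.44 ± 0.22, 95% interval -0.08 to 0.97). The dimmer probe (A_51_P431087) read 0.791 and 0.625 against 1.17 and 1.37 (0.85 ± 0.21). Both probes were higher on both 4T1-S arrays, and neither was called. The dimmer probe passed without 4T1-A replicate 1.

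Fibronectin is the multidomain glycoprotein to which integrins attach through its RGD site, and its fibrils template the deposition of other matrix proteins. No difference was detected in Fn1. The probe A_51_P100856 was spotted 10 times per array and averaged 9.98 and 7.27 in 4T1-A, against 11.6 and 7.19 in 4T1-S (0.10 ± 0.28, 95% interval -0.56 to 0.76). Its spots ranged from 7.87 to 12.5 (median 9.99) and from 6.22 to 9.13 (median 7.03) on the 4T1-A arrays, and from 9.24 to 13.6 (median 12.0) and from 5.78 to 10.03 (median 6.93) on the 4T1-S arrays. The coefficient of variation between spots was 11.7 to 18.9 percent on an array, and in each sub-line the spots of the replicate arrays overlapped only in part. The probes A_52_P11817 (1.88 and 1.28 against 2.52 and 1.37) and A_52_P299974 (0.267 and 0.190 against 0.302 and 0.221) gave 0.26 ± 0.33 and 0.20 ± 0.25. In all 3 probes replicate 1 was brighter than replicate 2 in both sub-lines. The sign of all 3 turned with scaling to the array median, without 4T1-A replicate 2 and without 4T1-S replicate 1.

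**Figure D3:**
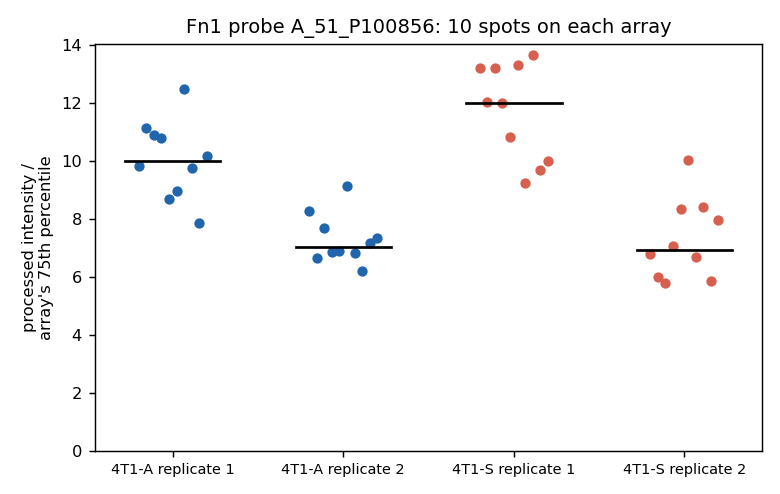
Level (processed intensity over the array's 75th percentile) at each of the 10 spots of the Fn1 probe A_51_P100856 on each array, with lines for the medians. The medians are 9.99 and 7.03 in 4T1-A, against 12.0 and 6.93 in 4T1-S, so the replicate 1 arrays lie above the replicate 2 arrays in both sub-lines.

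CYR61 and CTGF are integrin-binding CCN proteins whose genes are widely used as readouts of the coactivators YAP and TAZ with TEAD factors. Cyr61 read 16.98 and 11.1 in 4T1-A, against 8.68 and 12.9 in 4T1-S (-0.38 ± 0.28, 95% interval -1.04 to 0.28). Ctgf read 18.3 and 10.3 in 4T1-A, against 11.1 and 10.3 in 4T1-S (-0.37 ± 0.28, 95% interval -1.03 to 0.30). Both genes were well above the 75th percentile on every array, their sub-lines overlapped and neither was called. The level of Ctgf in 4T1-A replicate 1 stood above the other 3 arrays, and without that array its difference was 0.05. The upstream window of Cyr61 (chr3:145649986-145650235, minus strand, GRCm38.p6) is shown because it holds the TEAD core, read as CATTCC on this strand, at -103 to -98 counted from the start.

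Cyr61: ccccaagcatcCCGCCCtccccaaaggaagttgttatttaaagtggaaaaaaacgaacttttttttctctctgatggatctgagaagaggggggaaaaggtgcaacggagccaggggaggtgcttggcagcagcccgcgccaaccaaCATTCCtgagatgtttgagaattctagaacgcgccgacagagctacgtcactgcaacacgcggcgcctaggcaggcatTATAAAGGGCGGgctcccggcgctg

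The other capitals are a TATA box at -25 to -20 and a GC box near each end of the window. The TEAD core occurs in 12.6 percent of all windows of this length and the TATA box in 12.4 percent. No AP-1 motif, found in 6.75 percent, and no CArG box, found in 1.47 percent, was present in the 10 windows searched, which belong to 7 member genes, Cyr61 included. The windows of Ctgf, Fn1 and Thbs1 were not searched.

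By their median, replicates of the member probes differed more than those of all probes, above all in 4T1-A. The median absolute log2 difference between replicate arrays was 0.49 over the 15 member probes in 4T1-A and 0.29 in 4T1-S, against 0.23 in both sub-lines over all probes tested. In 4T1-A, replicate 1 was the brighter array for 11 of the 15 member probes, which come from 9 genes, against 53.3 percent of all probes tested.

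**Figure D4:**
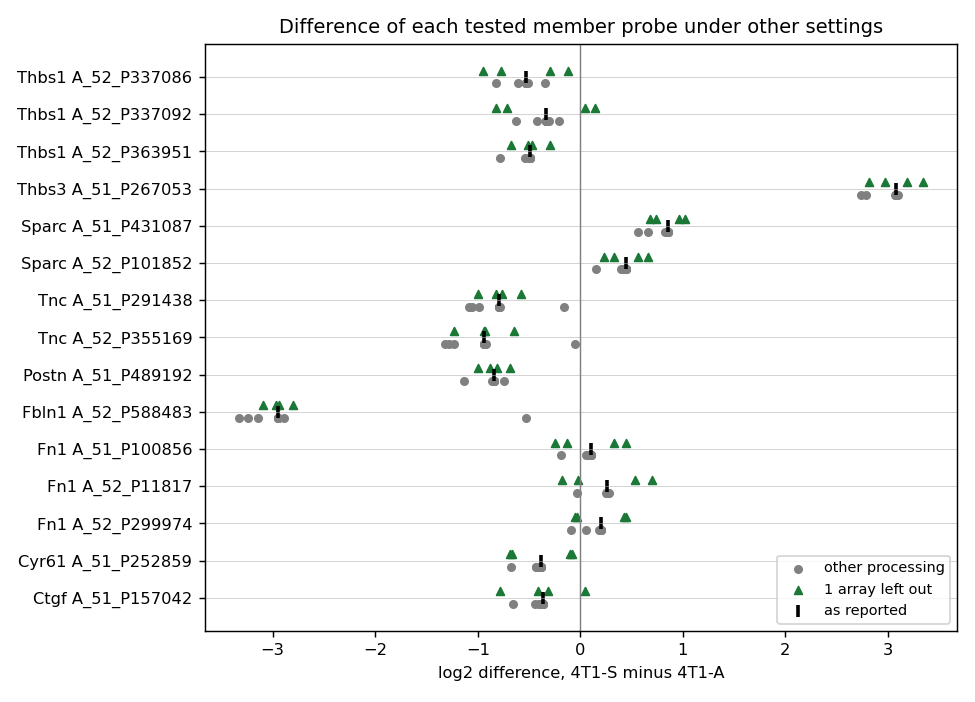
Difference of each of the 15 tested member probes (log2, 4T1-S minus 4T1-A) as reported (black bar), with 1 array left out (green triangles) and under other processing (grey dots). Thbs3 stays between 2.74 and 3.35, whereas Fbln1 moves from -2.95 to -0.53 with normexp and the Fn1 probes lie on both sides of 0.

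The relatives of these proteins differed in both directions. Of 30 further matricellular and microfibril genes listed, 29 were on the array and 14 were tested by 16 probes, of which limma called 3 higher and 3 lower (37.5 percent, against 4.58 percent of all probes), with a median difference of 0.22. The list was drawn up with earlier results of these arrays known. Among the other CCN genes, Wisp2 read 0.0509 and 0.0729 in 4T1-A, against 0.248 and 0.270 in 4T1-S (2.09 ± 0.23, adjusted p = 0.00272), with 1 of the 4T1-A arrays above background. Wisp1, a Wnt-induced CCN gene, read 3.53 and 2.75 against 11.4 and 8.97 (1.70 ± 0.23, adjusted p = 0.00666). Both rose on both arrays, although with normexp the difference of Wisp2 was 0.97, whereas Nov was on no array well above background. The third rise was that of Fbln5, a fibulin of elastic fibres and named here because it completes the count, at least 1.41-fold (adjusted p = 0.0356). Its called probe was dim, at 0.0387 and 0.0322 in 4T1-A, neither well above background, against 0.0708 and 0.0703 in 4T1-S. The Fbln5 probes A_51_P186703 and A_52_P288050 were on no array well above background. The falls were those of Edil3, an integrin ligand with EGF-like repeats (0.0965 and 0.140 against 0.0146 and 0.0140, at least 2.03-fold, adjusted p = 4.4e-04), of the calcification inhibitor Mgp (2.20 and 3.34 against 0.919 and 1.23, -1.35 ± 0.26, adjusted p = 0.0343) and of Ecm1 (-1.01 ± 0.22, adjusted p = 0.0458), an extracellular matrix glycoprotein gene that also completes the count and whose dimmer probe was not called (-0.86 ± 0.20). Another Edil3 probe (A_52_P243658) went the other way, from 0.0460 and 0.0412 in 4T1-A to 0.0794 and 0.0652 in 4T1-S. It was well above background on 1 4T1-S array only and was not tested. The Edil3 probes A_51_P506397 and A_52_P322444 were on no array well above background, so the fall of Edil3 was called on a single probe. The calls of Wisp1, Wisp2 and Mgp were lost with no filter on dim probes, that of Edil3 with normexp (-0.75) and that of Mgp also with normexp and without either 4T1-S array. Those of Fbln5 and Ecm1 were not followed over the other settings.

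Of 46 tested probes of 25 receptor genes, 1 was called higher and 2 lower (6.52 percent, against 4.58 percent of all probes), and the median difference was -0.0036. Itga8, whose alpha 8 chain pairs with beta 1 to bind fibronectin and tenascin C, read 0.622 and 1.07 in 4T1-A, against 0.0136 and 0.0130 in 4T1-S, on both of which it was not well above background (at least 14.2-fold lower, adjusted p = 6.91e-05). With normexp its difference was -2.69 in place of -5.94. A second Itga8 probe fell by 2.39 ± 0.33 and the third, near background, differed by -0.34 ± 0.27. Itgb3, the beta chain of the alpha v beta 3 receptor for thrombospondin, fibronectin, periostin and CCN proteins, read 0.956 and 1.01 against 2.92 and 2.32 (1.40 ± 0.21, adjusted p = 0.0104). That call did not survive testing with no filter on dim probes or without 4T1-S replicate 1. A dimmer Itgb3 probe gave 0.80 ± 0.34 and was not called. The differences of the 4 Cd47 probes were 0.16 to 0.54, that of the Cd36 probe above background in both sub-lines was 0.08, and none was called. A second Cd36 probe, above background in 4T1-S alone, was at least 1.62-fold higher there and was also not called.

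Further lists held genes of the pathways that drive matricellular transcription and of matrix assembly, and 4.35 to 6.9 percent of their tested probes were called, against 4.58 percent of all probes. In the YAP and TEAD list 2 of 46 probes were called higher and 0 lower, with a median of -0.0091. The 2 were Tgfb2 (0.0918 and 0.0820 against 0.351 and 0.338, 1.99 ± 0.19, adjusted p = 0.00137, and 1.22 with normexp) and the transcription factor gene Tead2 (3.49 and 4.02 against 6.99 and 7.49, 0.95 ± 0.19, adjusted p = 0.0395). A second Tead2 probe gave 0.85 ± 0.22 without a call. The call of Tead2 was lost under 5 of 15 other settings, among them scaling to the median and leaving out 4T1-A replicate 1 or either 4T1-S array. In the list of serum response factor and its coactivators 1 of 23 probes was called, one of the tropomyosin gene Tpm1 (0.969 and 1.15 against 3.10 and 4.13, 1.76 ± 0.22, adjusted p = 0.00518), with a list median of 0.11. The other tested Tpm1 probes gave -0.10 ± 0.19 and 0.03 ± 0.19 and were not called, so the rise was seen on that probe alone. In the TGF-beta list 1 of 33 probes was called higher and 1 lower (median -0.07), namely the collagen gene Col1a1, higher by at least 2.59-fold from 4T1-A arrays on which it was not above background (adjusted p = 0.00777), and Id2, an inhibitor of basic helix-loop-helix factors (-1.01 ± 0.21, adjusted p = 0.0405, with -0.99 ± 0.40 on a probe not called). In the list of matrix assembly and turnover 1 of 29 probes was called higher and 1 lower (median 0.14), the cross-linking transglutaminase gene Tgm2 (1.17 ± 0.22, adjusted p = 0.0313) and the aggrecanase gene Adamts5, lower by at least 3.20-fold with both 4T1-S arrays not above background (adjusted p = 8.07e-04). The 2 other Tgm2 probes gave 0.62 ± 0.21 and 1.23 ± 0.35 and were not called. Of Col1a1, the probes A_51_P377094 and A_52_P658611 were on no array well above background and were not tested. The calls of Id2 and Tgm2 were each lost under 6 of 14 other settings, including without either 4T1-S array, that of Col1a1 with no filter on dim probes and without 4T1-S replicate 2 (with normexp its difference was 0.76 in place of 1.95), that of Adamts5 with normexp (-0.68 in place of -2.86), and that of Tpm1 with no filter on dim probes.

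**Figure D5:**
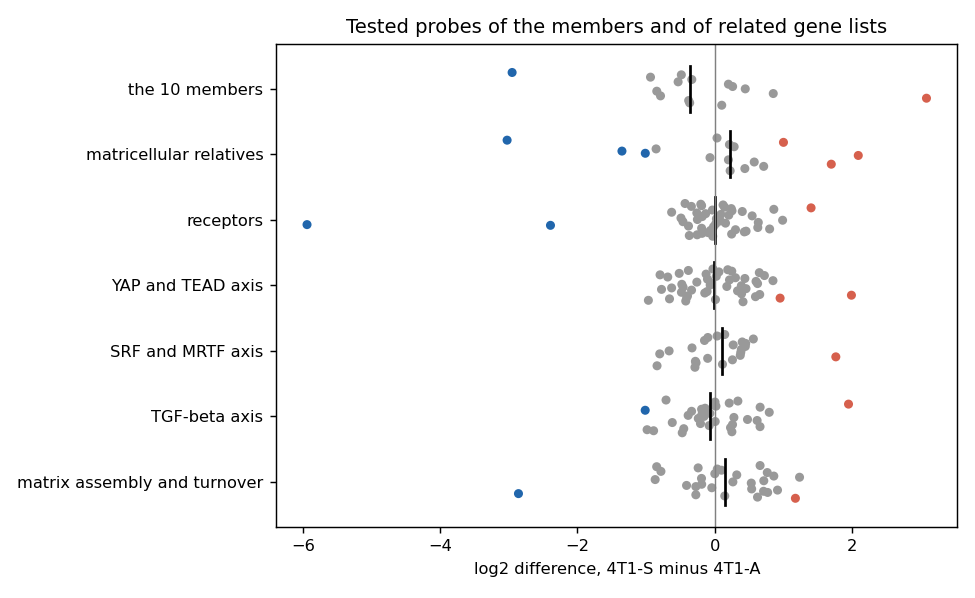
Difference (log2, 4T1-S minus 4T1-A) of each tested probe of the 10 members and of the 6 related gene lists, with probes called higher in red, called lower in blue, not called in grey and the median as a black bar. The medians of the related lists lie between -0.07 and 0.22, and that of the members at -0.37, which becomes 0.047 without 4T1-A replicate 1 and -0.68 without 4T1-A replicate 2.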

How the data were processed

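Cy3-labelled cRNA was made from total RNA, per the labels' protocols, and measured on 4 one-colour Agilent arrays. The authors' spot intensity came from Agilent Feature Extraction 9.1, named in the submitters' processing notes, and is background-subtracted and detrended but not scaled between arrays, per the file headers. The values of 4T1-A replicate 1 are held to 3 digits. The deposited series table holds a ratio, found from its values to be that intensity over the array's 75th percentile.

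Values were log2 intensity minus the log2 75th percentile over spots other than controls. Spots flagged as outliers were removed and the spots of each probe averaged. Limma 3.58.1 in R 4.3.3 (2-sided moderated test from lmFit and eBayes, residual df 2, prior df 5.49) compared probes above background on both arrays of a sub-line, with p-values adjusted by Benjamini-Hochberg over 23668 probes at 0.05. The fit was tested on simulated data. The number of arrays limits the precision.

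Members and lists were chosen with earlier results of these data known. Genes named beside the members were up to 2 rises and 2 falls per list, the markers and the 3 probes most like Thbs3. Gene names are those of the array. Chromosomes and upstream windows are RefSeq's, GRCm38.p6, and the genome build of the array is not given in the sources used here. Alternatives were other scalings and background corrections, filters, flags, variance models, the replicate number as a block and leaving out each array. The normexp correction used an offset of 50 intensity units, where the 75th percentiles of the arrays were 405 to 577.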

Additional observations from a re-analysis of the deposited data

How the results depend on the processing

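Of 217 values of the 15 tested member probes under other settings, 188 kept their direction and side of the threshold, 16 gained a call, 1 lost it and 12 turned sign. As reported, 2 member probes were called; there were 5 with scaling to the median, 4 with cyclic loess, 1 with normexp, 1 with the filter on all arrays, and 2 to 5 with 1 array left out (5 without 4T1-A replicate 1, 4 without 4T1-A replicate 2). The number of all probes called was 1085, and it was 539 with normexp, 302 with no filter on dim probes, 584 with the filter on all arrays, and 446 to 2293 with 1 array left out (lowest without 4T1-S replicate 2, highest without 4T1-A replicate 2). For the related lists together the number was 16, and it was 9 with normexp, 4 with no filter, 9 with the filter on all arrays, and 8 to 28 with 1 array left out. With 1 array left out, the lone array of a sub-line is assumed to vary like the other sub-line's. The filters change the number of probes tested, and the offset of normexp draws dim levels together. Beyond that, the cause of these shifts was not tested. Testing 1 probe per gene name, an alternative chosen after seeing the data, gave 3 calls among the members, with adjusted p = 0.0463 for Postn.

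With the replicate number as a block, 6 member probes, 4672 of all probes and 57 probes of the related lists were called, the members being Thbs3, Fbln1, the dimmer Sparc probe, Postn and 2 Tnc probes. Deviations of same-numbered arrays from their sub-line means correlated at 0.443 over probes, but the labels give no shared batch, so the samples are taken to share only a number.

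The sign turns were small. Fn1 gave -0.19, -0.032 and -0.093 with scaling to the median in the order of its probes above. With 1 array left out, these 3 probes ranged from -0.25 to 0.45, from -0.18 to 0.70 and from -0.048 to 0.44, the Thbs1 probe A_52_P337092 from -0.82 to 0.15 and Ctgf from -0.78 to 0.047. Low signal over background limits Thbs2, Fbln1 and Tnc.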

Other observations

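The genes on either side of each member in the RefSeq annotation were also read where a probe was found for them, after the members' values were seen. That held for 18 genes, and for Sparc and Cyr61 on 1 side only. Of 13 tested probes of 10 neighbouring genes, limma called 0 higher and 2 lower, against 2.21 and 2.37 percent of all probes, and their median difference was 0.13. Both called probes belong to the neighbours of Ctgf on chromosome 10. Moxd1, which encodes a monooxygenase-like protein, read 11.3 and 10.9 in 4T1-A, against 1.82 and 1.18 in 4T1-S (-2.92 ± 0.25, limma adjusted p = 6.77e-04). Enpp1, the ectonucleotidase that makes pyrophosphate and degrades the STING ligand cGAMP, read 0.456 and 0.332 in 4T1-A, against 0.0148 and 0.0213 in 4T1-S, with neither of these arrays well above background (at least 6.79-fold lower, adjusted p = 1.29e-04). Both calls held under all the other settings tried (15 for Moxd1 and 14 for Enpp1, whose difference normexp moved from -4.46 to -1.37), while Ctgf between them differed by -0.37 ± 0.28 and was not called.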
